A study of Homo sapiens with 48 samples.

Results

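The DNA replication and S phase genes were 49 protein-coding genes, taken by gene symbol from the 48898 genes of the count table. They were grouped by their textbook role into 9 groups: the MCM2-7 helicase, origin licensing and firing, the sliding clamp and its loader, primase and polymerases, single strand binding and lagging strand processing, nucleotide supply, chromatin copying, E2F factors with cyclin E, and fork protection with S phase protein turnover. All 49 were found in the table, lay on 20 chromosomes and passed the filter on low counts in every fit over all groups of an experiment; POLE2, E2F2 and E2F8 did not where treated SK-MEL-103 libraries were filtered alone. RNA sequencing was done on 48 libraries in 16 groups of 3, from IMR-90, a human lung fibroblast line with a limited lifespan, and SK-MEL-103, a human melanoma line. The treated cells received doxorubicin, a drug that poisons topoisomerase II and breaks DNA, at 200 nM for 48 h and then grew without the drug; the series text calls the resulting state senescence. In the siRNA experiment both lines were transfected one day before the drug with a control siRNA (cNEG) or with siRNA to MFN1, MFN2, both (MFN1+2) or MAVS, and RNA was taken on day 7. MFN1 and MFN2 are the mitofusins, which fuse outer mitochondrial membranes, and MAVS is the mitochondrial adaptor of RNA sensing. In the compound experiment, which used IMR-90 only, cells were given DMSO, 20 µM MFI8 or 10 µM BI for 48 h after 7 days of the doxorubicin course, and RNA was taken on day 9. The series text describes MFI8 as inhibiting and BI as activating MFN1 and MFN2. The proliferating groups got no doxorubicin and carried the control siRNA or DMSO, so transfection or vehicle was common to both sides of each comparison.

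DNA replication starts in G1, when the origin recognition complex, CDC6 and CDT1 load the ring-shaped MCM2-7 helicase onto DNA. In S phase, CDC45 and the GINS complex join the ring, primase and DNA polymerase alpha lay primers, and polymerases delta and epsilon copy the strands while held by the PCNA clamp. Most of these genes are transcribed in bursts under the E2F factors, which the retinoblastoma family holds in check when p21, the product of CDKN1A, blocks the cyclin-dependent kinases; loss of this programme is a hallmark of the senescent arrest.

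The promoters of 41 of the 49 genes were in the RefSeq table of the GRCh38.p14 build; those of MCM4, MCM5, GINS4, POLD3, RPA2, RPA3, E2F8 and CCNE2 were not analysed here. The 250 bases before the first listed start of each gene were searched on both strands for E2F words (TTTCCCGC, TTTCGCGC, TTTGCCGC and TTTGGCGC), for CHR words (TTTGAA and TTCGAA) that mark many mitotic genes, and for CCAAT, the word read by NF-Y. A promoter was counted once per word set, and words were allowed to overlap. An E2F word lay in 16 of 41 members (39.0%) against 2.79% of all 27305 promoters. The 16 were CDT1, DTL, E2F1, E2F2, GINS2, LIG1, MCM3, MCM6, MCM7, PCNA, POLA1, POLA2, POLE, RFC3, TYMS and UHRF1. CCAAT lay in 24 members (58.5%) against 33.0% of all promoters, and a CHR word in 2 members (4.88%) against 14.6%. These shares describe letters in a window and not binding. The last 200 bases before the start are shown, 5′ to 3′ on the gene's strand, for the 2 genes of the table with the largest fall under doxorubicin in IMR-90 (E2F2 and MCM10) and the 2 with the smallest (PRIM2 and POLA2). CCNE1, the only member that rose there, was added after its values were seen. Capitals mark an E2F word or CCAAT.
E2F2, chr1:23531234-23531433, minus strand: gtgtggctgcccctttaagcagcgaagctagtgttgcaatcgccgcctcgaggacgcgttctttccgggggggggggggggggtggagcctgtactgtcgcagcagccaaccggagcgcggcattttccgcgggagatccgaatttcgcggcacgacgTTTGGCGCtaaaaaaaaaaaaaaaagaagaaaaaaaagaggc
MCM10, chr10:13161358-13161557, plus strand: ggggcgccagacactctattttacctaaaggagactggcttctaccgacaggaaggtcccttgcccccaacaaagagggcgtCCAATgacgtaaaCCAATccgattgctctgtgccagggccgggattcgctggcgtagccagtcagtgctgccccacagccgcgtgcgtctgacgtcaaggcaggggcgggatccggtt
PRIM2, chr6:57314605-57314804, plus strand: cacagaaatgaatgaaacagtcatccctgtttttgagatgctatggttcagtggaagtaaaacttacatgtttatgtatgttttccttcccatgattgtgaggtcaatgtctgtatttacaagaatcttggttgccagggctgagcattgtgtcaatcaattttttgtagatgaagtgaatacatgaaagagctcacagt
POLA2, chr11:65261762-65261961, plus strand: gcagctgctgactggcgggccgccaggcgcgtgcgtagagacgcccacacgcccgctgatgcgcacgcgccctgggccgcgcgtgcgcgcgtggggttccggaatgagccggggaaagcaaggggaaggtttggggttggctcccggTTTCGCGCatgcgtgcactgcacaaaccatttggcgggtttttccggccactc
CCNE1, chr19:29811791-29811990, plus strand: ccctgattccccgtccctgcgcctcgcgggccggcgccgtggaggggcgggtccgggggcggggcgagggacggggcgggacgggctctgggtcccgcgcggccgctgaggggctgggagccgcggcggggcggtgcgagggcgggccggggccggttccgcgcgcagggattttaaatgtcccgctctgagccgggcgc
E2F2 held TTTGGCGC at 42 to 35 bases before the start, and POLA2 held TTTCGCGC at 53 to 46 bases before it. MCM10 held CCAAT at 118 to 114 and at 105 to 101 bases before the start. None of the words lay in the printed bases of PRIM2, for which 2 starts are listed, or of CCNE1. An E2F word was thus present in 1 gene of the pair with the largest fall and in 1 of the pair with the smallest.

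Library totals ran from 15206115 to 79204217 counts, and the libraries numbered 3 were the shallowest as a set (15206115 to 31127306). Those numbered 1 held 53390716 to 79204217 counts and those numbered 2 held 30176556 to 50828283. Replicate number thus ran with depth, so what same-numbered libraries share cannot be told apart from depth. Whether replicates came from separate cultures is not stated, so p-values measure only the spread between these libraries, which may be technical. Levels are given as CPM, counts scaled by library size, with TMM scaling over all 48 libraries; differences are log2 fold changes ± SE from edgeR's quasi-likelihood test, with Benjamini-Hochberg adjusted p over all genes tested and a threshold of 0.05. Some IMR-90 libraries stood apart from the others: CDKN2A, which encodes p16 and ARF, had no count in 22 of the 30 IMR-90 libraries, at totals of up to 79204217 counts, and 47 to 1872 counts in 8. Whether the gene was absent from the cells or left out of the counting in those 22 was not tested, so the 0 is a listed value and is not read as a level. The 8 libraries with counts included treated library 3 of the control siRNA, siMFN1, siMFN2 and siMFN1+2 groups. The others with counts were library 1 of siMAVS and library 2 of the treated DMSO, MFI8 and BI groups. The IMR-90 counts of called members are given below with and without these 8 libraries, a set chosen after their values were seen. All 8 fibroblast markers were above 1 CPM in every IMR-90 library, and 2 of them in every SK-MEL-103 library too. COL1A1 was at 3306 to 31026 CPM in IMR-90 and 2.42 to 67.8 CPM in SK-MEL-103. LUM overlapped, at 12.3 to 170 CPM and 12.5 to 64.2 CPM. Of 8 melanocyte lineage markers, 2 were above 1 CPM in every SK-MEL-103 library and 4 were below it in every one. The 2 above it were SOX10, at 368 to 662 CPM against at most 0.304 CPM in IMR-90, and MITF. MITF was higher in IMR-90, at 16.2 to 78.0 against 6.84 to 12.5 CPM. MFN1 mRNA in doxorubicin-treated IMR-90 was 50.0, 65.1 and 39.1 CPM with the control siRNA and 7.84, 7.91 and 7.27 CPM with siMFN1, and the other target genes were also lower in the libraries labelled with their siRNA, as given below beside each comparison.

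Proliferating IMR-90 cells expressed the whole set, and doxorubicin lowered nearly all of it. Per kilobase of exon, PCNA had the highest level in the proliferating control siRNA libraries (143 ± 20.0 CPM per kb, SD, n = 3), followed by TYMS (102 ± 18.1), TK1 (89.3 ± 11.6), MCM7 (89.1 ± 8.02), RRM2 (80.4 ± 5.45) and FEN1 (71.7 ± 20.0). From TYMS to FEN1 the mean ± SD ranges of neighbours in that order overlapped. The lowest per kilobase were E2F2 (1.72 ± 0.298), POLA2 (1.99 ± 0.108), E2F8 (2.25 ± 0.583) and CCNE1 (3.08 ± 0.323). After doxorubicin PCNA was still the highest (44.7 ± 5.29 CPM per kb), but TYMS (17.7 ± 0.760), RPA2 (14.7 ± 2.77), FEN1 (11.9 ± 4), RRM1 (10.9 ± 1.94) and MCM7 (10.4 ± 0.956) now followed, and TK1 and RRM2 were no longer near the top. The summed level of the 49 genes was 5248 ± 367 CPM (SD, n = 3) in proliferating and 680 ± 55.6 CPM in doxorubicin-treated cells, which left 13.0% of it.

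In IMR-90 on day 7, 48 of 49 members fell and 1 rose, while 24.4% of the 19077 genes tested fell and 27.4% rose. The median log2 fold change over the members was −3.05 beside 0.09 over all genes. In 48 members every treated library lay below every proliferating one, as it did in 5191 of the 19077 genes tested. In bulk RNA, fewer cells in S phase and less of these RNAs per cell cannot be told apart. MKI67, the proliferation marker, fell with the members (−4.45 ± 0.66, adjusted p = 6.3e-05), and CDKN1A, which encodes p21, rose (2.65 ± 0.13, adjusted p = 1.1e-08).

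**Figure D1:**
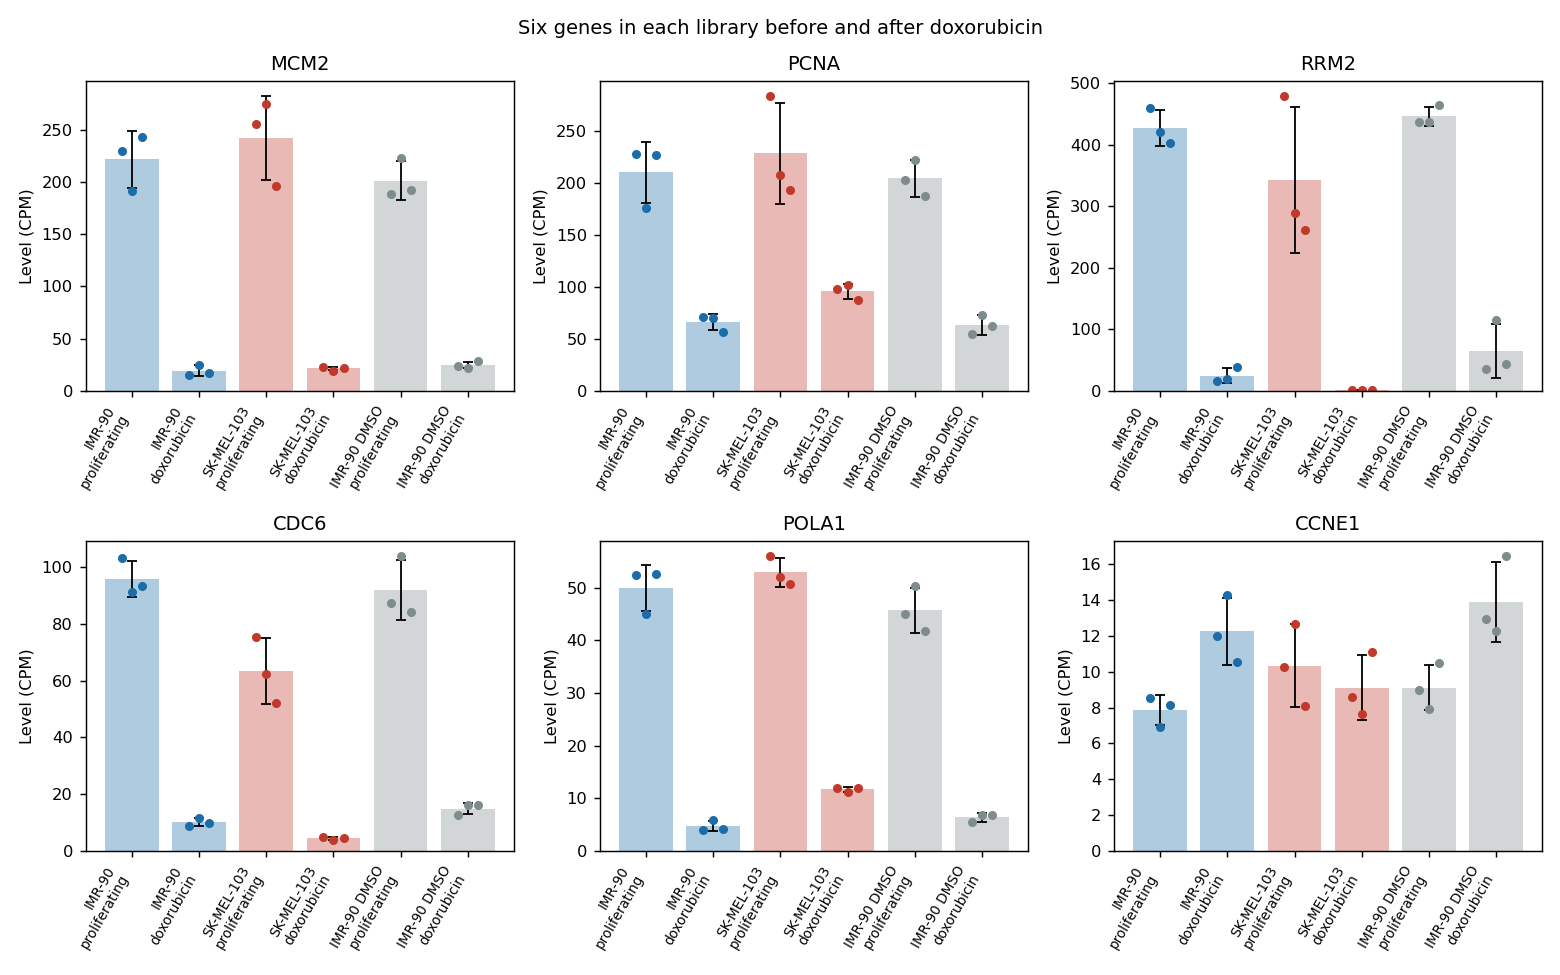
Level of MCM2, PCNA, RRM2, CDC6, POLA1 and CCNE1 (CPM, linear axis) in the proliferating and doxorubicin-treated groups of the 3 experiments. Each point is 1 library, and bars are group means with SD. RRM2 dropped below 2 CPM in treated SK-MEL-103 but not in treated IMR-90. PCNA dropped less than MCM2, RRM2, CDC6 and POLA1, and CCNE1 did not drop in IMR-90.

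The helicase subunits fell together in IMR-90, with a median of −3.21 over the 6. MCM2 was at 230, 191 and 244 CPM in proliferating libraries and at 15.4, 25.0 and 17.0 CPM after doxorubicin, an 11.3-fold fall (−3.50 ± 0.35, adjusted p = 1.49e-06). The smallest fall of the ring was that of MCM3 (−3.05 ± 0.23), and MCM4, MCM5, MCM6 and MCM7 lay between these values.

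Origin licensing and firing genes had a median of −3.47 and a wider range. MCM10, which helps CDC45 and the helicase to start unwinding, was at 65.8, 47.6 and 64.3 CPM in proliferating cells and at 2.08, 2.6 and 2.33 CPM after the drug, 24.8-fold lower (−4.63 ± 0.34, adjusted p = 1.34e-07). The treated libraries were close to one another and far below the lowest proliferating one. ORC6, a small subunit of the origin recognition complex, fell least (44.1, 36.5 and 42.6 against 6.28, 6.57 and 9.77 CPM; −2.43 ± 0.21). ORC1, the largest subunit of that complex, fell by 4.18, CDC45 by 4.28, and the licensing factors CDC6 and CDT1 by 3.21 and 3.50. Of the GINS complex, GINS2 fell most (−3.70), GINS3 least (−2.56), and GINS1 and GINS4 lay between them.

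The clamp and its loader had a median of −2.64. PCNA, the ring that holds the polymerases on DNA, is also a p53 target; it went from 227, 176 and 226 CPM to 70.8, 69.7 and 56.8 CPM, only 3.12-fold lower (−1.64 ± 0.15, adjusted p = 5.9e-07). The loader subunits RFC2, RFC3, RFC4 and RFC5 fell by more, from −2.41 for RFC2 to −3.49 ± 0.37 for RFC3. The groups did not overlap for any of the 5.

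Primase and the polymerases held unequal falls within one enzyme. POLE2, the second subunit of polymerase epsilon, was at 18.6, 17.8 and 18.4 CPM in proliferating and at 1.03, 0.880 and 1.03 CPM in treated libraries (−4.19 ± 0.35, adjusted p = 3.38e-07). PRIM2, the large primase subunit, went from 42.8, 36.6 and 42.0 CPM to 15.6, 19.6 and 15.9 CPM, 2.32-fold lower (−1.21 ± 0.17, adjusted p = 3.67e-05). Its partner PRIM1, the catalytic primase subunit, went from 17.0, 12.9 and 14.7 CPM to 0.860, 1.08 and 0.763 CPM (−3.99 ± 0.28). The same kind of split was seen in polymerase alpha, where the catalytic POLA1 fell by 3.37 and the accessory POLA2 by 1.54. The catalytic subunits POLE and POLD1 fell by 2.41 and 2.64, and POLD3, a further polymerase delta subunit, by 2.79.

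Single strand binding and lagging strand genes fell least (median −1.99). RPA2, a subunit of the protein that coats single-stranded DNA in replication and in repair, was at 61.8, 43.2 and 52.9 CPM and then at 32.0, 33.8 and 23.3 CPM, 1.73-fold lower (−0.79 ± 0.16, adjusted p = 0.0009). The groups did not overlap, but the lowest proliferating and the highest treated library lay closer, as a ratio, than in any other member that fell here. FEN1, which trims the flaps of Okazaki fragments, fell by more (211, 121 and 201 against 26.9, 40.6 and 21.3 CPM; −2.55 ± 0.41), and LIG1, which seals them, by 2.04. RPA3, the smallest subunit of the same coat, fell by 1.94.

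Nucleotide supply held some of the steepest falls. RRM2, the small subunit of ribonucleotide reductase that is made in S phase, went from 460, 420 and 403 CPM to 15.9, 19.0 and 39.4 CPM (−4.09 ± 0.51, adjusted p = 1.41e-05). TK1, the thymidine kinase of cycling cells, went from 149, 191 and 159 CPM to 6.84, 6.26 and 15.5 CPM (−4.12 ± 0.58). Treated library 3, which holds CDKN2A counts, was the highest for both genes and for MKI67 (11.1, 20.3 and 37.0 CPM). TYMS, which makes thymidylate, fell least (275, 199 and 278 against 41.5, 44.3 and 45.1 CPM; −2.49 ± 0.21), and RRM1, the large reductase subunit, fell by 2.56. RRM2B, the p53-inducible small subunit that is no member of the set, rose from 68.0, 44.8 and 68.6 CPM to 184, 207 and 133 CPM (1.56 ± 0.21, adjusted p = 2.36e-05).

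Chromatin copying genes had a median of −3.90. UHRF1, which guides maintenance DNA methylation to new DNA, went from 344, 365 and 326 CPM to 17.6, 23.2 and 26.6 CPM (−3.91 ± 0.30, adjusted p = 1.82e-07). The subunits of chromatin assembly factor 1 fell by 2.77 (CHAF1A) and 3.90 (CHAF1B), and no group overlapped.

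The E2F and cyclin E group held both the largest fall and the only rise. E2F2, an activator of S phase genes, was at 9.28, 7.82 and 11.1 CPM and then at 0.211, 0.196 and 0.534 CPM, 33.2-fold lower (−5.05 ± 0.40, adjusted p = 2.3e-07). E2F8, a repressor that acts later in S phase, fell by 4.71, E2F1 by 2.91 and CCNE2, one of the cyclin E genes, by 2.66. CCNE1, the other cyclin E gene, was at 8.51, 6.93 and 8.13 CPM in proliferating and at 12, 14.3 and 10.5 CPM in treated libraries, 1.59-fold higher (0.67 ± 0.17, adjusted p = 0.0039), and all treated libraries lay above all proliferating ones. With only these libraries in the fit and a term for the replicate number, neither the rise of CCNE1 (0.71, adjusted p = 0.0814) nor the fall of RPA2 (−0.75, adjusted p = 0.0526) passed the threshold.

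Fork protection and turnover genes had a median of −3.43. CLSPN, which links stalled forks to the CHK1 kinase, fell most (96.8, 90.3 and 86.9 against 4.62, 6.73 and 6.53 CPM; −3.92 ± 0.32). DTL, the receptor that sends CDT1 for destruction in S phase, went from 103, 86.3 and 86.5 CPM to 4.77, 7.69 and 6.79 CPM (−3.82 ± 0.34). TIPIN fell least (20.0, 16.2 and 21.1 against 4.24, 4.77 and 4.70 CPM; −2.04 ± 0.17), and its partner TIMELESS fell by 3.05.

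**Figure D2:**
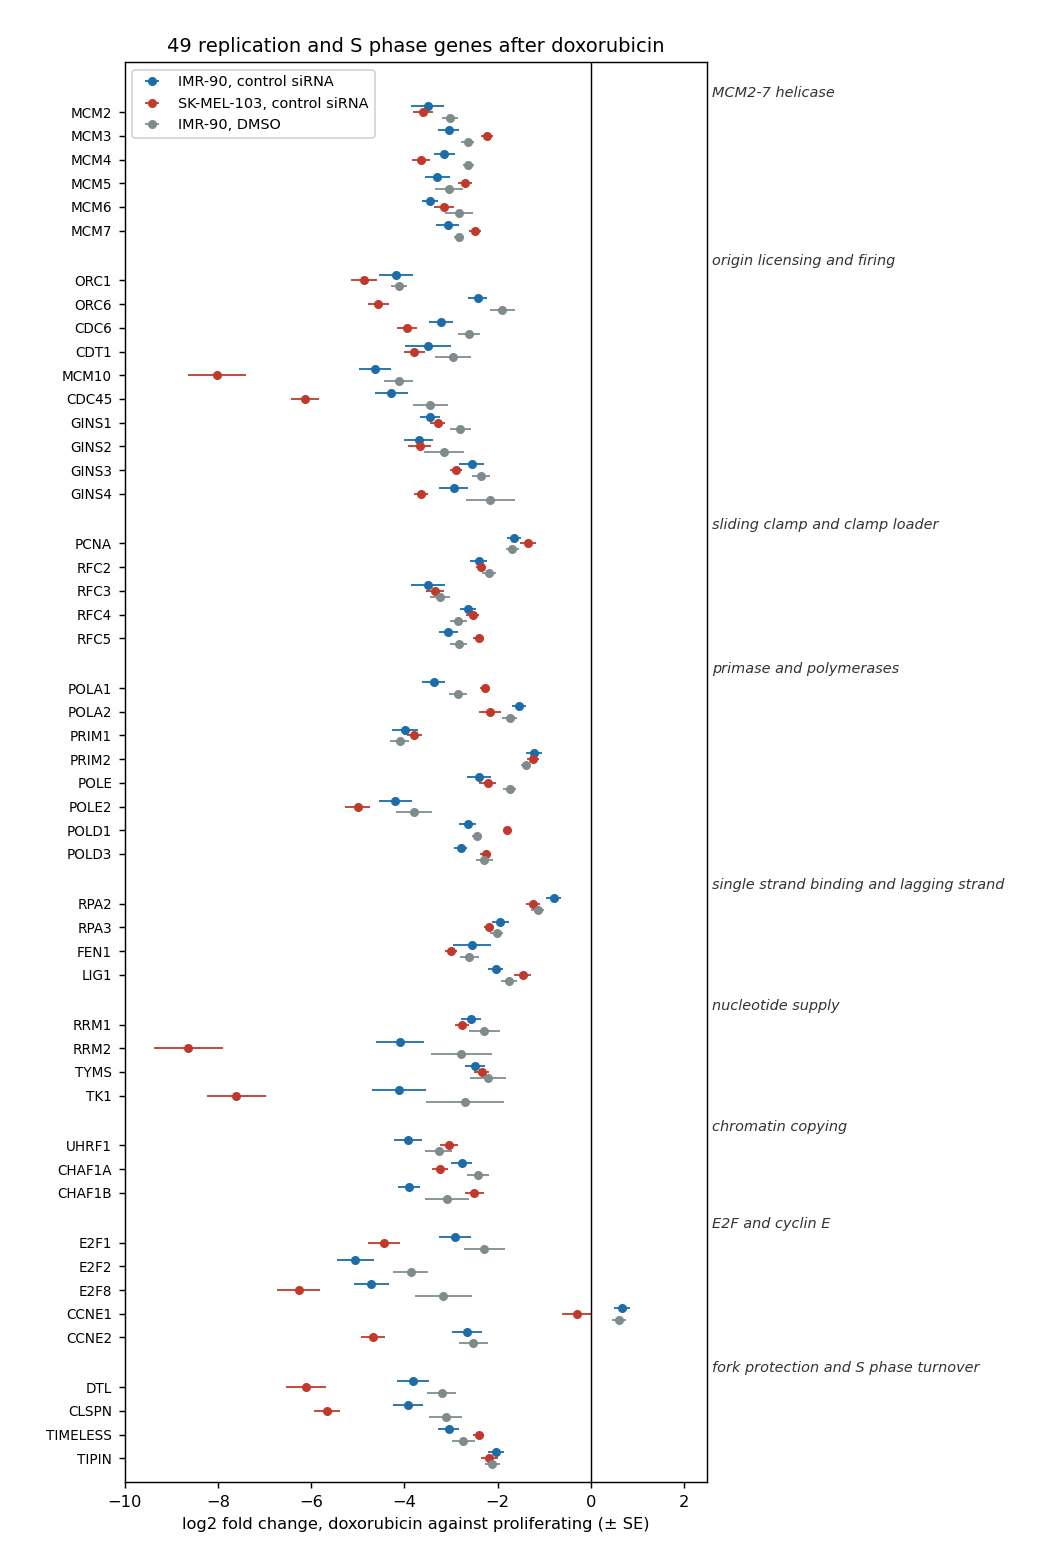
Log2 fold change of each member with doxorubicin in the 3 experiments (points; bars are 1 SE), ordered within role groups; E2F2 is left out for SK-MEL-103, where it rests on 3 counts. All points but CCNE1 in IMR-90 lie left of 0, and MCM10, RRM2 and TK1 lie farthest left in SK-MEL-103.

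In SK-MEL-103, 48 of 49 members fell and none rose; 30.6% of all genes tested fell and 29.8% rose. The median was −3.05 beside 0.03 over all genes, and the summed level went from 4425 ± 827 CPM (SD, n = 3) to 684 ± 3.60 CPM, leaving 15.5%. The proliferating libraries were spread (5346, 4183 and 3745 CPM in sum) while the treated ones were nearly equal. MKI67 fell by 9.52 ± 1.06 (adjusted p = 7.65e-07) and CDKN1A rose by 1.95 ± 0.12 (adjusted p = 3.71e-10).

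The melanoma cells lost a handful of members almost completely. RRM2 was at 480, 288 and 262 CPM in proliferating and at 0.929, 0.535 and 1.45 CPM in treated libraries, 397-fold lower (−8.63 ± 0.73, adjusted p = 2.91e-08). MCM10 went from 87.0, 87.5 and 62.9 CPM to 0.259, 0.317 and 0.464 CPM, 260-fold lower (−8.02 ± 0.62, adjusted p = 8.93e-09). TK1 went from 157, 122 and 104 CPM to 0.601, 0.475 and 1.21 CPM, 195-fold lower (−7.60 ± 0.64). In all 3 genes the treated libraries lay near or below 1 CPM and every proliferating library far above. E2F2 had 1353 counts in the proliferating libraries and 3 in the treated ones, a depth-scaled ratio of 568 with a 95% exact interval of 194 to 2758 that covers counting error only. Its CPM were 13.7, 7.57 and 6.89 against 0, 0.0396 and 0.0309. DTL (46.2, 44.1 and 40.3 against 0.546, 0.594 and 1.02 CPM; −6.11 ± 0.44), CDC45 (−6.13) and E2F8 (−6.27 ± 0.47) followed, then CLSPN (−5.66), POLE2 (−5.00 ± 0.28), ORC1 (−4.86), CCNE2 (−4.66), ORC6 (−4.56) and E2F1 (−4.44).

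Other members kept more of their mRNA. PRIM2 was at 56.9, 63.8 and 51.5 CPM and then at 25.7, 24.3 and 27.9 CPM (−1.24 ± 0.13). RPA2 was at 30.1, 47.9 and 27.4 CPM and then at 16.4, 14.9 and 16.2 CPM (−1.24 ± 0.15). PCNA went from 284, 207 and 193 CPM to 98.0, 101 and 87.4 CPM (−1.35 ± 0.17, adjusted p = 2.57e-06). None of these 3 overlapped between the groups. Within the helicase, MCM4 fell most (−3.65 ± 0.20) and MCM3 least (170, 113 and 110 against 29.2, 30.0 and 30.0 CPM; −2.23 ± 0.13). GINS3 (−2.89 ± 0.14) fell least among the origin genes, RFC3 (−3.34) most among the clamp genes, and FEN1 (−3.00 ± 0.13) most on the lagging strand. TYMS fell by 2.34 ± 0.16, CHAF1A by 3.24 ± 0.17, CHAF1B by 2.5 ± 0.21 and TIPIN by 2.18 ± 0.19. CCNE1 did not pass the test (10.3, 12.7 and 8.07 against 8.60, 7.62 and 11.1 CPM; −0.30 ± 0.32, adjusted p = 0.421), and its groups overlapped.

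The second IMR-90 experiment, read on day 9 in DMSO, gave 48 falls and 1 rise, with 27.1% of all genes falling and 28.8% rising. The changes ran from −4.12 to 0.61 with a median of −2.69 (all genes 0.10), and the sum went from 5018 ± 279 to 857 ± 181 CPM, leaving 17.1%. MKI67 fell by 3.28 ± 0.59 (adjusted p = 0.000908) and CDKN1A rose by 2.20 ± 0.16 (adjusted p = 2.34e-06). MCM10 had the largest fall (61.1, 64.5 and 65.4 against 2.67, 4.68 and 3.71 CPM; −4.12 ± 0.30), next to ORC1 (−4.11 ± 0.17) and PRIM1 (−4.10 ± 0.20). CCNE1 rose here too, from 8.98, 7.91 and 10.5 CPM to 12.9, 12.3 and 16.4 CPM (0.61 ± 0.15, adjusted p = 0.0065), and its groups did not overlap.

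One treated library of this experiment kept more of the replication genes than the others. The second DMSO library of the treated cells summed to 1054 CPM beside 700 and 817 CPM. RRM2 was at 437, 437 and 465 CPM in proliferating and at 35.3, 116 and 44.2 CPM in treated libraries (−2.77 ± 0.65, adjusted p = 0.00433). TK1 showed the same library on top (123, 152 and 122 against 7.91, 40.5 and 12.8 CPM; −2.69 ± 0.83, adjusted p = 0.0184), as did GINS4 (−2.16 ± 0.52, adjusted p = 0.00516). MKI67 was also highest in that library, at 29.3, 86.3 and 46.6 CPM, and it is the one with CDKN2A counts. Without it and the other libraries with CDKN2A counts 48 members fell and 1 rose, with RRM2 at −3.48 and a median of −2.81. The shares of all genes in that fit are not given here. RPA2 again had the smallest fall (−1.14 ± 0.14). Within roles, the medians were −2.82 for the helicase, −2.88 for origin genes, −2.84 for the clamp, −2.36 for primase and polymerases, −1.89 for the lagging strand, −2.49 for nucleotide supply, −3.08 for chromatin, −2.52 for E2F and cyclin E, and −2.93 for fork genes.

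In the day 7 experiment, too, 48 members fell and 1 rose without the libraries that hold CDKN2A counts, with the shares of all genes in that fit not given here. Over the 49 members the changes of the day 7 and day 9 IMR-90 experiments had a Pearson r of 0.931 and a Spearman rho of 0.920, as a description across genes of the same cell line. The median difference, day 7 minus day 9, was −0.40 on the log2 scale; the experiments differ in day, vehicle and transfection, which cannot be told apart.

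Genes around the set behaved alike in the 3 experiments. Of 32 other replication genes, 30, 31 and 31 fell (day 7 IMR-90, SK-MEL-103 and day 9 IMR-90) and 1 rose each time. The riser was POLD4, the smallest polymerase delta subunit (1.29 ± 0.29, 0.98 and 1.68). ASF1B, a histone chaperone, fell by 3.46 in day 7 IMR-90 and by 6.30 in SK-MEL-103, and ATAD5, which unloads PCNA, by 3.73 and 2.95 in the day 7 and day 9 IMR-90 cells. Among 18 RB and E2F partners, 11, 12 and 11 fell and 2, 3 and 2 rose. MYBL2 fell by 4.10, 6.72 and 3.14, RBL1, which encodes the RB relative p107, by 3.52, 2.10 and 2.83, and CCND1, cyclin D1, rose by 1.05, 0.98 and 1.25. All 24 mitosis and G2/M genes fell in each experiment, with medians of −4.11, −5.94 and −3.16, and so did all 18 homologous recombination and Fanconi genes (−3.30, −3.95 and −2.70). RRM2B rose in SK-MEL-103 (90.7, 83.8 and 100 against 192, 189 and 194 CPM; 0.97 ± 0.09) and on day 9 (78.2, 64.2 and 73.4 against 190, 161 and 174 CPM; 1.29 ± 0.12).

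**Figure D3:**
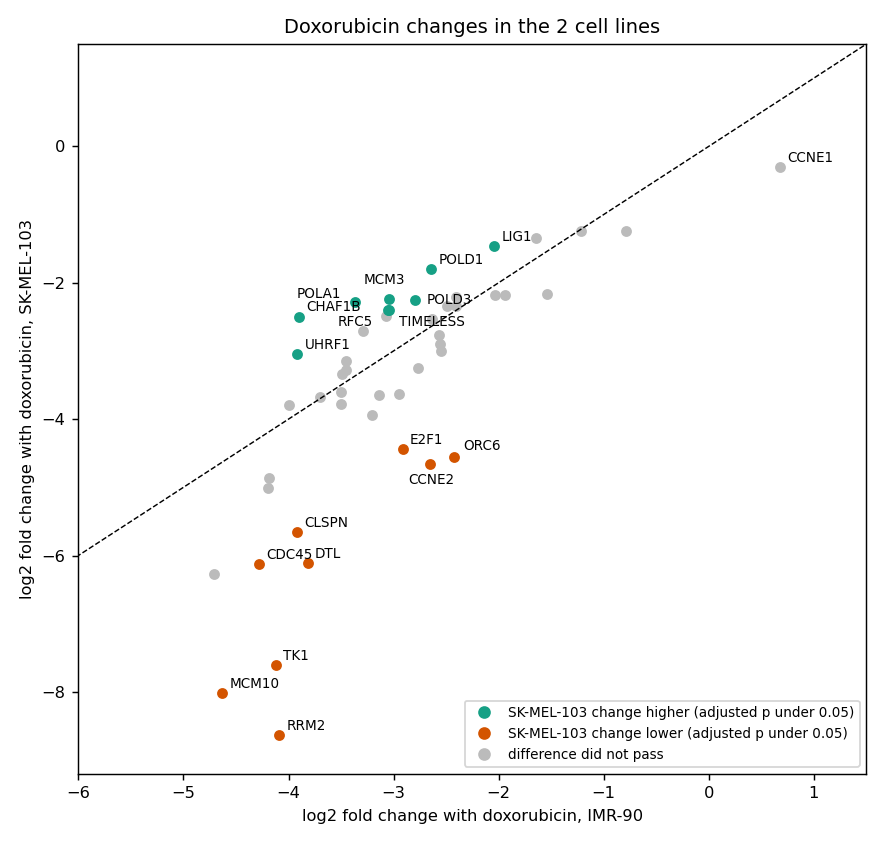
Log2 fold change with doxorubicin of each member in IMR-90 (x axis) against SK-MEL-103 (y axis), day 7, control siRNA; the line marks equal change, and E2F2 is left out. RRM2, TK1 and MCM10 lie far below the line (−8.63, −7.60 and −8.02 in SK-MEL-103) and CHAF1B, POLA1 and UHRF1 above it.

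Whether the drug changed a member differently in the 2 lines was tested as the difference of differences over both siRNA experiments. Of 49 members, 9 had a less negative change in SK-MEL-103 and 10 a more negative one, while 13% of all genes tested were called with a higher and 9.16% with a lower value. The median difference over the members, SK-MEL-103 minus IMR-90, was −0.11, and it ran from −0.18 to 0.05 on leaving out 1 library (the latter without proliferating SK-MEL-103 library 1). Across the 49 genes the 2 lines' changes had a Pearson r of 0.768 and a Spearman rho of 0.812, a description across genes.

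The 10 members with a larger loss in the melanoma line were 3 of 10 origin genes, 3 of 5 E2F and cyclin E genes, 2 of 4 nucleotide supply genes and 2 of 4 fork genes. The difference was −4.43 for RRM2 (adjusted p = 0.00058), −3.36 for TK1, −3.28 for MCM10 (adjusted p = 0.003), −2.17 for DTL (adjusted p = 0.0088), −2.04 for ORC6, −1.90 for CCNE2, −1.74 for CDC45, −1.63 for CLSPN and −1.41 for E2F1. The fitted difference for E2F2 was −3.69 (adjusted p = 0.016), but it rests on 3 counts and was −2.86 (adjusted p = 0.0992) without treated SK-MEL-103 library 1. The nucleotide supply role shows the contrast inside one pathway, since TYMS (0.25) was not called beside RRM2 and TK1. Genes of cell division moved the same way: 15 of 24 mitosis and G2/M genes had a more negative change in SK-MEL-103, and MKI67 had a difference of −4.93 ± 1.3 (adjusted p = 0.00667). CDKN1A had a smaller rise in SK-MEL-103 (−0.61 ± 0.16, adjusted p = 0.00551), and RRM2B was not called (−0.50 ± 0.23, adjusted p = 0.122).

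The 9 members with a smaller loss in SK-MEL-103 were 3 of 8 primase and polymerase genes, 2 of 3 chromatin genes, and 1 each of the helicase, clamp and loader, lagging strand and fork groups. CHAF1B had the largest such difference (1.52, adjusted p = 0.00066). Its treated levels were almost the same in both lines (2.82, 3.17 and 3.70 CPM in IMR-90 and 2.96, 3.05 and 3.65 CPM in SK-MEL-103), while its proliferating levels were 50.5, 45.4 and 50.9 against 23.8, 13.7 and 12.3 CPM. POLA1 showed the other form, with alike proliferating levels (52.4, 45.0 and 52.5 against 56.0, 52.1 and 50.7 CPM) and higher treated levels in the melanoma line (4.04, 5.85 and 4.24 against 12, 11.1 and 12 CPM); its difference was 1.19 (adjusted p = 0.0011). The others were UHRF1 (0.97), POLD1 (0.94), MCM3 (0.91, adjusted p = 0.0094), RFC5 (0.75, adjusted p = 0.018), TIMELESS (0.74, adjusted p = 0.026), LIG1 (0.68, adjusted p = 0.047) and POLD3 (0.64). RFC5 and TIMELESS missed the threshold without treated IMR-90 library 1 or without proliferating SK-MEL-103 library 2 or 3. LIG1 missed it on leaving out any of 9 of the 12 libraries, the exceptions being proliferating IMR-90 library 2, treated IMR-90 library 3 and proliferating SK-MEL-103 library 1. Without the libraries that hold CDKN2A counts 7 members had a higher and 14 a lower value, and RFC5 (0.53, adjusted p = 0.0671) and LIG1 (0.60, adjusted p = 0.0649) were not called. The shares of all genes in that fit are not given here, so the counts are not read as particular to the members. Of the remaining members, POLE2 (−0.69), MCM4 (−0.41), CHAF1A (−0.37), RPA2 (−0.36), RFC2 (0.16), GINS1 (0.26) and CCNE1 (−0.87 ± 0.38, adjusted p = 0.1) were not called. Among 32 other replication genes, 7 had a higher and 3 a lower value in SK-MEL-103 (DONSON 0.98, RPA1 0.70; ASF1B −2.74, CDC25A −1.93), and among 18 RB and E2F partners 6 and 2 (RBL1 1.53, CDK4 1.14; MYBL2 −2.49, CDK6 −0.89).

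Levels of the lines were also compared directly; here cell line and experiment cannot be told apart. Among proliferating cells 6 members were higher and 17 lower in SK-MEL-103, beside 23.9% and 28% of all genes. GINS3 (1.21), ORC6 (0.90), RFC5 (0.65), PRIM2 (0.54), POLD1 (0.37) and RPA3 (0.32) were higher. POLE2 (−1.77 ± 0.24, adjusted p = 3.6e-07), CHAF1B (−1.51), DTL (−1.04), POLA2 (−0.88), MCM3 (−0.82), RFC2 (−0.63), GINS2 (−0.62), RPA2 (−0.54) and RRM1 (−0.42) were among the lower ones. The count of 23 became 12 without proliferating IMR-90 library 1, and 15 or 13 without proliferating SK-MEL-103 library 2 or 3. The same libraries decided GINS2; RPA2 was lost without IMR-90 library 1 or SK-MEL-103 library 3, DTL without SK-MEL-103 library 3, and RRM1 without any of 5 of the 6 libraries. GINS2 was also lost without proliferating IMR-90 library 3. With a replicate block over all groups 8 members were higher and 9 lower, against 22.7% and 25.8% of all genes. Without the libraries that hold CDKN2A counts 9 were higher and 14 lower, with the shares of all genes in that fit not given here. CDKN1A (0.59 ± 0.11) and RRM2B (0.64 ± 0.16) were higher, and MKI67 was not called (−0.99 ± 0.73, adjusted p = 0.268).

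Among doxorubicin-treated cells 12 members were higher and 20 lower in SK-MEL-103, with 30.6% and 32.8% of all genes. The largest excess was that of RFC5 (4, 5.81 and 4.28 CPM in IMR-90 against 12.5, 12.8 and 11.7 CPM; 1.40 ± 0.17, adjusted p = 3.9e-08), ahead of POLA1 (1.31), POLD1 (1.3), LIG1 (1.01), GINS3 (0.97), UHRF1 (0.80) and MCM7 (0.64). RRM2 was lowest (−4.71 ± 0.71, adjusted p = 1.6e-06), then TK1 (−3.70), DTL (−3.22), MCM10 (−2.82), POLE2 (−2.46), CLSPN (−2.37), MCM4 (−0.98), RPA2 (−0.90), CHAF1A (−0.60, not called without treated IMR-90 library 3) and RFC2 (−0.47). E2F2 was also called lower, on 3 counts. Without the libraries that hold CDKN2A counts 13 members were higher and 18 lower, with the shares of all genes in that fit not given here. MKI67 was lower as well (−5.92 ± 1.07, adjusted p = 2.42e-05), CDKN1A (−0.01 ± 0.11) and RRM2B (0.14 ± 0.16) were not called.

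**Figure D4:**
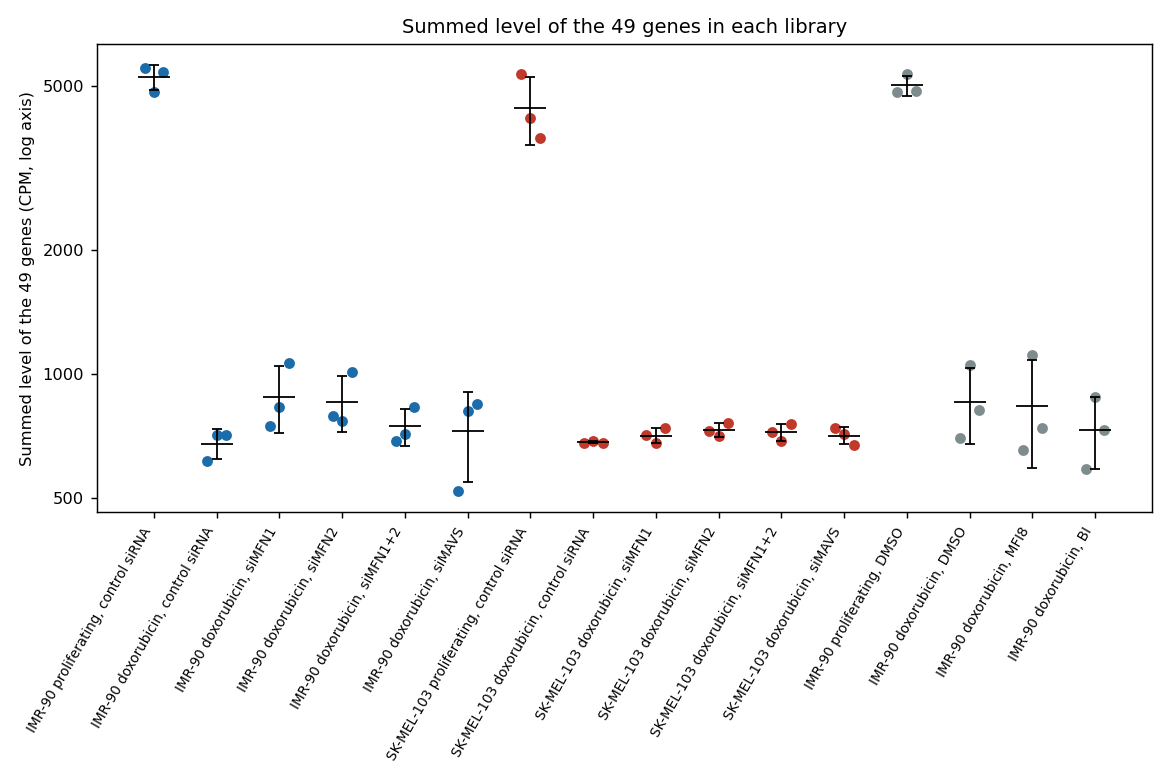
Summed level of the 49 members (CPM) in every library of the 16 groups; points are libraries and bars the group means with SD. The proliferating groups lie between 3745 and 5517 CPM, and all doxorubicin-treated libraries at or below 1116 CPM whatever siRNA or compound they received.

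The siRNA comparisons ask whether the low level of the set in treated cells depends on MFN1, MFN2 or MAVS. The 4 siRNA groups of a line share one control group, so their values are set side by side. In treated IMR-90 the summed level was 680 ± 55.6 CPM (SD, n = 3) with the control siRNA, 884 ± 163 with siMFN1, 859 ± 134 with siMFN2, 747 ± 77.0 with siMFN1+2 and 728 ± 180 with siMAVS. No member passed the threshold in any of the 4 comparisons; of all genes tested, 1.58%, 0.225%, 1.57% and 0.634% did. At an unadjusted p under 0.05, 19, 9, 2 and 1 members were reached, beside 2999, 2569, 3124 and 2875 of all 19077 genes tested. DESeq2's Wald test called 3 (MCM10, GINS1 and UHRF1, all higher, against 2.54% of all genes called higher by it), 0, 0 and 0.

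With siMFN1 in IMR-90, 46 of 49 members had a higher mean than the control, with a median of 0.45. The median was 0.30 without siMFN1 library 3. The siRNA lowered MFN1 by 2.74 ± 0.28 (adjusted p = 0.00098). UHRF1 was at 33.2, 35.2 and 61.2 CPM beside 17.6, 23.2 and 26.6 CPM in the control libraries (0.94 ± 0.28, adjusted p = 0.11). RRM2 was at 38.9, 40.3 and 81.5 CPM beside 15.9, 19.0 and 39.4 CPM, and TK1 at 17.5, 11.5 and 42.0 CPM beside 6.84, 6.26 and 15.5 CPM (1.32 ± 0.54, adjusted p = 0.24). Library 3 was the highest in both groups for these 3 genes, and UHRF1 alone of them had groups that did not overlap. RPA2 went the other way (22.0, 23.5 and 19.0 beside 32.0, 33.8 and 23.3 CPM; −0.47), and its groups overlapped only between 23.5 and 23.3 CPM.

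Over the roles, the highest values with siMFN1 were MCM6 0.53, MCM10 1.04, RFC3 0.60, POLE2 0.75, LIG1 0.15, TK1 1.32, UHRF1 0.94, E2F2 1.47 and DTL 0.90. The lowest were MCM7 0.13, GINS3 0.14, RFC2 0.00, POLA2 −0.24, RPA2 −0.47, RRM1 0.26, CHAF1A 0.15, E2F1 0.25 and TIPIN 0.02. The smallest adjusted p was 0.088, for GINS1. In 14 members all siMFN1 libraries lay above all control libraries and in none below, against 9.37% and 9.44% of all genes. MKI67 was 34.8, 38.6 and 110 CPM beside 11.1, 20.3 and 37.0 CPM (1.42 ± 0.59, adjusted p = 0.25), CDKN1A was at −0.03 ± 0.13 and RRM2B at −0.03 ± 0.20. All 24 mitosis and G2/M genes had a higher mean (median 0.87), and none was called. Of the other replication genes 1 rose, RPA1, the large subunit of the single strand coat (0.49 ± 0.11, adjusted p = 0.042), and E2F3 (0.46 ± 0.10, adjusted p = 0.032) rose among the RB and E2F partners.

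Same-numbered IMR-90 libraries deviated together in this comparison, and a replicate block changed the calls. In a fit of the 2 groups alone with the replicate number as a block, 19 members rose and 1 fell, while 9.25% of all genes rose and 8.67% fell. RRM2 (1.14, adjusted p = 0.000163), TK1 (1.23, adjusted p = 0.000449), UHRF1 (0.91, adjusted p = 0.00133), MCM10 (1.02, adjusted p = 0.00574), DTL (0.90) and CLSPN (0.82) were among those that rose, and RPA2 (−0.46, adjusted p = 0.02) fell. MKI67 rose as well in that fit (1.39, adjusted p = 0.000278), and 21 of 22 mitosis and G2/M genes tested did. With the block over all 6 groups, 3 members rose, MCM6 (0.52, adjusted p = 0.0498), GINS1 (0.75, adjusted p = 0.0455) and UHRF1 (0.91, adjusted p = 0.0226), against 1.65% of all genes. The number in that block is the replicate number; by the library numbers in the labels, libraries 3 of the IMR-90 siRNA groups are 89 to 93 except that of siMAVS, which is 35. With a term for that range in place of the block RRM2 (1.13, adjusted p = 0.0464), TK1 (1.26, adjusted p = 0.0318) and UHRF1 (0.90, adjusted p = 0.0316) rose, against 1.64% of all genes. Without the libraries that hold CDKN2A counts, which leaves 2 a group, 4 members rose and none fell, against 1.08% of all genes rising: RRM2 (1.18, adjusted p = 0.00548), CDT1 (0.82, adjusted p = 0.0257), TK1 (1.14, adjusted p = 0.0279) and UHRF1 (0.74, adjusted p = 0.0211).

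With siMFN2 in IMR-90, which lowered MFN2 from 156, 164 and 181 CPM to 17.3, 20.2 and 17.2 CPM (−3.20, adjusted p = 1.6e-09), 41 members had a higher mean and the median was 0.35 (0.22 without siMFN2 library 3). RRM2 was at 35.4, 28.1 and 79.5 CPM, TK1 at 14.1, 10.2 and 33.3 CPM (1.00 ± 0.53) and UHRF1 at 32.7, 31.5 and 51.7 CPM (0.77 ± 0.28, adjusted p = 0.24, the smallest among members). CDC45 reached 0.90, MCM4 0.50, RFC3 0.51, POLE2 0.49, LIG1 0.40, E2F2 0.82 and DTL 0.60, while RPA2 was at −0.39, TIPIN at −0.19 and POLA2 at −0.11. In 13 members the siMFN2 libraries lay above all control libraries and in none below, against 8.94% and 8.49% of all genes. Without the libraries that hold CDKN2A counts RRM2 alone was called (0.85, adjusted p = 0.0336), against 0.162% of all genes rising. With these 2 groups alone and the replicate block, 15 members rose and RPA2 fell (7.57% and 7.19% of all genes), led by TK1 (0.94), RRM2 (0.90) and UHRF1 (0.75); over all groups the block gave 0. MKI67 was at 0.97 ± 0.58 (adjusted p = 0.50), CDKN1A at 0.27 ± 0.13 and RRM2B at 0.02 ± 0.20.

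With both mitofusin siRNAs in IMR-90 the median was 0.14, and 34 members had a higher mean. The median was 0.03 without control library 1 and 0.22 without siMFN1+2 library 1; without the libraries that hold CDKN2A counts it was 0.08, with no member called. MFN1 (14.9, 15.1 and 5.75 CPM; −2.08, adjusted p = 0.002) and MFN2 (−3.13) were lowered. RRM2 was at 27.7, 25.2 and 53.7 CPM, TK1 at 11.9, 10.2 and 28.2 CPM (0.80 ± 0.54) and UHRF1 at 29.8, 28.0 and 40.4 CPM (0.54 ± 0.28). RPA2 (22.2, 23.7 and 17.8 CPM; −0.48 ± 0.16) had the smallest adjusted p, 0.15. The highest in the other roles were MCM4 0.40, GINS4 0.65, RFC5 0.23, POLD3 0.29, LIG1 0.25, E2F2 0.49 and DTL 0.42. MCM10, GINS1, TYMS and UHRF1 lay above the control without overlap and POLA2, CCNE2 and TIPIN below, that is 4 and 3 members against 10.1% and 10.1% of all genes. In the 2 groups alone with the replicate block 8 members rose and RPA2 fell (−0.49), against 9.12% and 8.88% of all genes, and over all groups 0 were called. Among other replication genes RPA1 (0.55 ± 0.11, adjusted p = 0.023) and POLD2 (0.59 ± 0.13, adjusted p = 0.041) rose. MKI67 was at 0.87 ± 0.58, CDKN1A at 0.21 ± 0.13 and RRM2B at 0.06 ± 0.20, none called.

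With siMAVS in IMR-90 the median was 0.05, and 28 members had a higher mean. Both changed direction: on leaving out 1 library the median ran from −0.09 (without siMAVS library 3) to 0.18 (without siMAVS library 1) and the count from 19 to 41, and without the libraries that hold CDKN2A counts they were 0.27 and 42. MAVS went from 108, 150 and 130 CPM to 51.3, 44.4 and 40.7 CPM (−1.52, adjusted p = 0.0011). Library 1 of siMAVS summed to 521 CPM, the lowest of all treated IMR-90 libraries of the experiment, and it is the one with 1872 CDKN2A counts. Without that library 1 member rose, GINS1 (0.76, adjusted p = 0.044), against 0.314% of all genes. Without all libraries that hold CDKN2A counts RRM2 (1.00, adjusted p = 0.00753) and UHRF1 (0.73, adjusted p = 0.0222) rose, against 0.79% of all genes. RRM2 was at 16.6, 36 and 34.5 CPM, TK1 at 7.69, 10.0 and 9.62 CPM and UHRF1 at 19.8, 33.8 and 34.8 CPM (0.38 ± 0.28). GINS1 had the highest value among origin genes and the smallest adjusted p (0.50 ± 0.21, adjusted p = 0.27), and MCM4 was at 0.42, POLD1 at 0.34, CHAF1B at −0.35, MCM5 at −0.34 and POLE2 at −0.32. POLD3 lay above and CHAF1B below the control libraries without overlap, 1 member each way, against 8.18% and 7.77% of all genes. MKI67 was at 0.19 ± 0.58, CDKN1A at 0.14 ± 0.13 and RRM2B at 0.15 ± 0.20, none called.

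In treated SK-MEL-103 the sum stayed near its control of 684 CPM, at 711 with siMFN1, 733 with siMFN2, 724 with siMFN1+2 and 710 with siMAVS. No member was called in any of the 4 comparisons, and 0.123%, 0.0669%, 0.24% and 0.1% of all genes were. POLE2, E2F2 and E2F8, with 27, 3 and 13 counts in the treated control libraries together, passed the filter only through the proliferating group and are left out of the counts that follow. Of the other 46 members, unadjusted p under 0.05 was reached by 1, 6, 3 and 1, beside 1028, 615, 738 and 650 of all 17945 genes tested. DESeq2 called none of the 49. The medians over the 46 were 0.06, 0.21, 0.18 and 0.11, with 31, 42, 40 and 39 members above 0. Medians with 1 library left out were computed only over all 49, with POLE2, E2F2 and E2F8 included. With siMFN1 the median over the 49 was 0.06, and −0.06 without siMFN1 library 3. With siMFN2 it was 0.22, and 0.15 without siMFN2 library 3. With siMFN1+2 it was 0.17, and 0.08 without siMFN1+2 library 3. MFN1 was lowered by siMFN1 (50.4, 49.5 and 55.2 against 19.1, 19.5 and 13.0 CPM; −1.56) and by siMFN1+2 (−1.25). MFN2 was lowered by siMFN2 (94.6, 88.5 and 101 against 18.9, 20.1 and 18.9 CPM; −2.29) and by siMFN1+2 (−2.06), and MAVS by siMAVS (168, 160 and 175 against 48.9, 54.8 and 80.0 CPM; −1.42).

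The largest values in SK-MEL-103 came from genes that doxorubicin had brought to about 1 CPM or less. MCM10 was at 0.259, 0.317 and 0.464 CPM with the control siRNA, at 0.241, 0.196 and 2.51 with siMFN1 (1.17 ± 0.91), at 1.22, 0.632 and 2.26 with siMFN2 (1.97 ± 0.80), at 1.03, 0.683 and 2.86 with siMFN1+2 (1.96 ± 0.82) and at 0.768, 0.795 and 1.77 with siMAVS (1.65 ± 0.86). RRM2 was at 0.929, 0.535 and 1.45 CPM with the control, and at 0.865, 0.612 and 4.77, at 3.29, 1.60 and 5.80, at 1.81, 1.37 and 6.03, and at 2.05, 1.59 and 5.42 CPM with the 4 siRNAs in the same order. Library 3 was the highest of its group in all 5 groups for both genes, and with siMFN1 it alone stood above the control range. MKI67 followed the same libraries: 0.164, 0.198 and 0.990 CPM with the control, then 0.213, 0.147 and 2.89, then 1.33, 0.232 and 5.16, then 0.846, 0.534 and 3.67, and then 0.838, 1.21 and 6.99 CPM. The part of the library in these values was not tested.

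Among genes that stayed well expressed, MCM2 was at 22.7, 19.3 and 22.1 CPM with the control and at 21.8, 20.4 and 31.7 (0.21), 29.0, 25.8 and 33.6 (0.47), 27.1, 21.8 and 36.2 (0.42), and 23.0, 22.1 and 31.6 CPM (0.29) with the siRNAs. With siMFN2 alone all 3 of its libraries lay above the control range. POLE was at 0.29 and CDT1 at −0.22 with siMFN1, and CHAF1B at 0.33 and PCNA at −0.25 with siMFN2. POLE was at 0.30 with siMFN1+2, and FEN1 at 0.20 with siMAVS. DTL and CLSPN did not stay well expressed, as doxorubicin left 1.66% and 2.18% of their level in SK-MEL-103. DTL was at 0.85 with siMFN2, 0.66 with siMFN1+2 and 0.81 with siMAVS, and CLSPN at 0.24 with siMFN1. Of the 46 members, groups did not overlap for 6 above and 0 below the control with siMFN1 (7.39% and 9.19% of all genes), 15 and 1 with siMFN2 (5% and 7.38%), 10 and 0 with siMFN1+2 (4.12% and 8.26%) and 6 and 0 with siMAVS (3.1% and 7.05%). PCNA was the one below with siMFN2. CDKN1A lay within −0.18 and 0.00 in the 4 comparisons and RRM2B within −0.17 and −0.01, none called.

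Same-numbered SK-MEL-103 libraries deviated together for siMFN1, siMFN1+2 and siMAVS, and so did the 2 numbered pairs of siMFN2. In the 2 groups alone with the replicate block, siMFN1 gave 2 rises (MCM7 0.17, POLE 0.29) and 2 falls (PRIM2 −0.18, CCNE1 −0.37) of 46 members tested, against 8.99% and 9.96% of all genes. With siMFN1+2, 10 of 46 rose and none fell, against 4.03% of all genes rising; MCM10 (2.01, adjusted p = 0.000158), RRM2 (1.47, adjusted p = 0.000167), TK1 (0.88), CCNE2 (0.73), E2F1 (0.50), MCM2 (0.38), POLE (0.30), POLD3 (0.29), MCM5 (0.22) and RRM1 (0.21) were called. With siMAVS none was. With siMFN2, where 1 library has no number and 2 pairs remain, 7 of the 47 that passed the filter in that fit rose and none fell, against 2.09% of all genes rising: RRM2 (1.87), MCM10 (1.76), TK1 (1.15), ORC6 (0.73), E2F1 (0.64), CDC6 (0.56) and MCM2 (0.52). With the block over all 6 groups none was called with any of the 4 siRNAs.

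The siRNA effects were also compared between the lines. None of the 49 members had an effect that differed, for any of the 4 siRNAs, while 0.153% (siMFN1), 0.0431% (siMFN2), 0.144% (siMFN1+2) and 0.0431% (siMAVS) of all genes did. The nearest was UHRF1 with siMFN1, at −1.09 ± 0.34 for SK-MEL-103 minus IMR-90 (adjusted p = 0.23), which was called with the replicate block (adjusted p = 0.0385), against 0.274% of all genes called lower in that fit. All 24 mitosis and G2/M genes had a negative difference for siMFN1, and none was called.

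**Figure D5:**
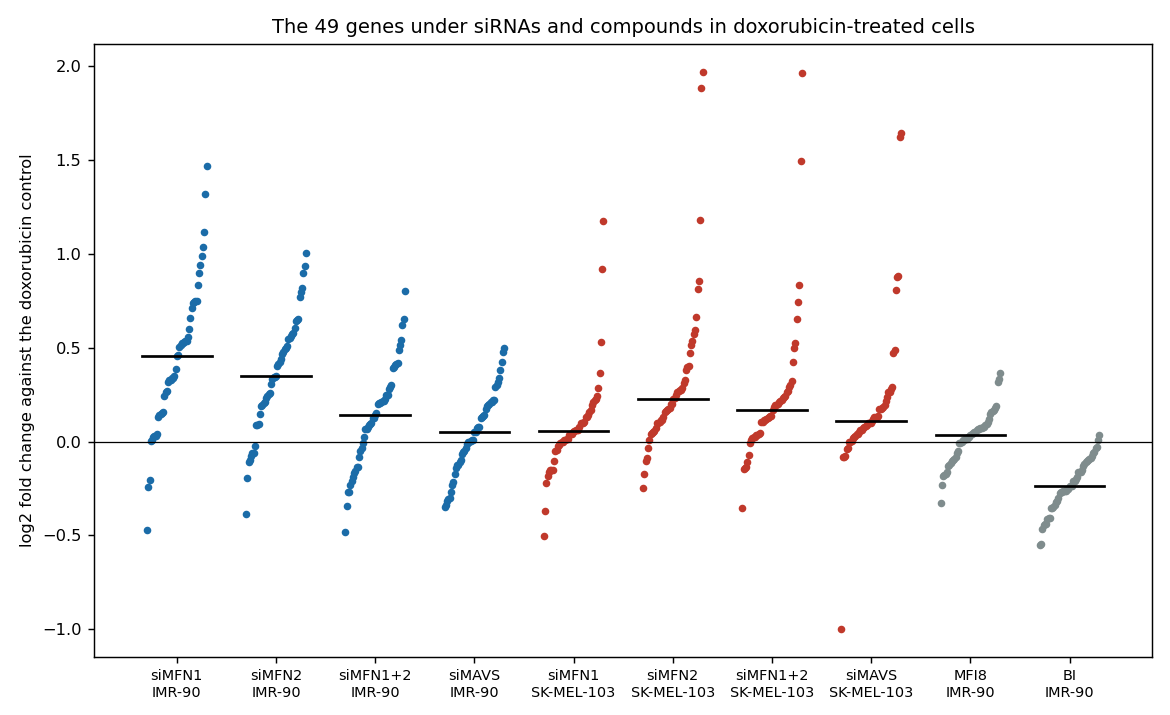
Log2 fold change of each member with every siRNA and compound against its own control in doxorubicin-treated cells. Each point is 1 member. E2F2 is not drawn for SK-MEL-103, but the bar is the median over all members, E2F2 included. The medians run from −0.24 (BI) to 0.45 (siMFN1 in IMR-90), and no member passed the threshold in any column.

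The compound comparisons ask the same of MFI8 and BI given to cells already treated with doxorubicin. Both were read against one DMSO group, at different doses, so their values are set side by side and not compared. No gene was called with either compound (0% of all genes tested with each), and 371 and 175 genes over the whole table had an unadjusted p under 0.05; none of them was a member, and DESeq2 called no member. The summed level was 857 ± 181 CPM (SD, n = 3) with DMSO, 838 ± 245 with MFI8 and 735 ± 146 with BI. By library these sums were 700, 1054 and 817, then 656, 1116 and 741, then 589, 882 and 734 CPM, so library 2, the one with CDKN2A counts, was the highest in each group. Without the libraries that hold CDKN2A counts no gene was called with either compound, and the medians over the members were −0.07 with MFI8 and −0.23 with BI.

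With MFI8 the median was 0.04 and 31 members had a higher mean. Both changed direction: on leaving out 1 library the median ran from −0.23 (without MFI8 library 2) to 0.19 (without DMSO library 2), and the count from 6 to 44. Values ran from −0.33 for TYMS to 0.37 for PRIM1. RRM2 was at 29.5, 117 and 36.2 CPM beside 35.3, 116 and 44.2 CPM with DMSO, and MCM5 at 18.2, 38.3 and 22.7 CPM beside 20.0, 34.0 and 21.3 CPM. Among roles the highest were MCM2 0.09, MCM10 0.19, RFC4 0.16, RPA2 0.05, RRM1 0.01, CHAF1A 0.08, CCNE2 0.33 and DTL 0.17, and the lowest MCM7 −0.10, GINS1 −0.18, PCNA −0.18, POLE −0.06, LIG1 −0.11, UHRF1 −0.05 and E2F8 −0.23. No member had groups that did not overlap, against 2.92% higher and 2.57% lower over all genes. TYMS was at 30.2, 62.8 and 36.5 CPM beside 35.5, 84.0 and 43.4 CPM, lower in each same-numbered library, and in the 2 groups alone with the replicate block it was the 1 member called (−0.31, adjusted p = 0.0235), against 1.98% of all genes falling. Of 24 mitosis and G2/M genes 23 had a lower mean with MFI8 (median −0.27), and 10 of 23 tested fell in the blocked fit of the 2 groups. MKI67 was at 20.9, 71.5 and 34.1 CPM beside 29.3, 86.3 and 46.6 CPM, CDKN1A at −0.07 ± 0.16 and RRM2B at −0.01 ± 0.12.

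With BI 47 members had a lower mean and the median was −0.24. On leaving out 1 library the median ran from −0.37 (without treated DMSO library 1) to −0.09 (without BI library 1). RRM2 was at 21.1, 79.1 and 33.6 CPM beside 35.3, 116 and 44.2 CPM (−0.54), and MCM5 at 15.1, 25.2 and 18.9 CPM beside 20.0, 34.0 and 21.3 CPM (−0.35). Each BI library was below the DMSO library of the same number for both genes, and the groups overlapped. Among roles the lowest were MCM5 −0.35, CDC45 −0.55, RFC5 −0.24, POLE2 −0.41, FEN1 −0.26, RRM2 −0.54, CHAF1B −0.35, E2F8 −0.47 and DTL −0.41, and the highest MCM7 −0.15, GINS4 −0.26, PCNA −0.08, PRIM1 0.03, RPA3 −0.06, RRM1 −0.20, CHAF1A −0.09, E2F2 −0.10 and TIMELESS −0.12. POLD1 lay below DMSO without overlap, and no member above it, against 1.79% and 1.65% of all genes. Same-numbered libraries deviated together, and in the 2 groups alone with the replicate block 16 members fell and none rose, beside 2.42% of all genes falling. They were RRM2 (−0.58, adjusted p = 2.13e-08), CDC45 (−0.55), DTL (−0.49), CDC6 (−0.48, adjusted p = 0.000228), GINS1 (−0.45), GINS2 (−0.42), MCM2 (−0.36, adjusted p = 0.00036), MCM5 (−0.36, adjusted p = 0.000425), CLSPN (−0.36), ORC6 (−0.35), UHRF1 (−0.33), TK1 (−0.32), MCM6 (−0.30), FEN1 (−0.27), TYMS (−0.24) and RRM1 (−0.20). With the block over all 4 groups 0 were called. All 24 mitosis and G2/M genes had a lower mean with BI (median −0.61), and 22 of 22 tested fell in the blocked fit of the 2 groups; MKI67 was at 13.8, 56.4 and 30.6 CPM. CDKN1A was at 0.15 ± 0.16 and RRM2B at 0.05 ± 0.12, not called.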

How the data were processed

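The authors deposited 1 table of counts per gene for 48 libraries (48898 genes, human), made from strand-specific libraries of total RNA per the labels' protocols; Trim Galore 0.6.7, STAR 2.7.10a, featureCounts and GRCh38 are named in the submitters' processing notes. The version of featureCounts and its multi-mapping setting are not given in the sources used here. Symbols were found for 48679 identifiers.

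Counts were tested with edgeR 4.0.16 in R 4.3.3 (filterByExpr, TMM, glmQLFit, glmQLFTest), in fits over all groups of 1 experiment (18, 18 or 12 libraries) or of both siRNA experiments (36), with Benjamini-Hochberg adjustment over all genes tested. SE is the absolute log2 fold change divided by the square root of F. Only the unblocked fit of the IMR-90 siRNA experiment was run on simulated counts, for siMFN1 and with the same spread for every gene. The other fits were not tested in that way. Levels are CPM with TMM over all 48 libraries, per kilobase with union exon lengths of GENCODE 29; whether groups overlap was read from these levels. Totals of 15206115 to 79204217 counts limit the precision of genes near 1 CPM. Between 2 libraries of a group, chi-square per degree of freedom was at least 10.0 over 48 pairs, so none was a repeat deposit.

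Members and lists were chosen with earlier results of these data known. Named with values are, per role and comparison, the members with the largest and smallest change, any member called against its role's median, MFN1, MFN2, MAVS, CDKN1A, MKI67 and RRM2B, and up to 2 highest and 2 lowest called genes of the lists of other replication genes and RB and E2F partners; other names were added after their values were seen. Alternatives were DESeq2 1.42.0 (test, and its size factors), no filter, only the groups compared, a replicate block, library number range as a covariate, and each library left out. Leaving out the IMR-90 libraries with CDKN2A counts and counting, in treated SK-MEL-103, only members that pass the filter there were chosen after seeing the data.

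Same-numbered libraries of the siRNA and compound comparisons were taken as paired where 3 pairs existed and every pair's deviations correlated above 0.1. In IMR-90 these were siMFN1 (0.417 to 0.671), siMFN2 (0.466 to 0.722), siMFN1+2 (0.395 to 0.679), MFI8 (0.664 to 0.865) and BI (0.653 to 0.880). In SK-MEL-103 they were siMFN1 (0.220 to 0.419), siMFN1+2 (0.259 to 0.436) and siMAVS (0.144 to 0.236). The pairing rests on these numbers and not on a stated shared source, and the replicate number ran with library depth. IMR-90 siMAVS (−0.434 to 0.460) and the doxorubicin comparisons did not pair. 1 SK-MEL-103 siMFN2 library carries no replicate number and was left out of blocked fits. The 2 pairs that remain for siMFN2 correlated at 0.398 to 0.422, but were too few for the rule.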

Additional observations from a re-analysis of the deposited data

Results flagged for a closer look

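The response of 19 members to doxorubicin differed between the 2 lines by a test of the difference itself (edgeR, 36 libraries, adjusted p under 0.05). The values are log2 differences, the change in SK-MEL-103 minus the change in IMR-90. More negative in SK-MEL-103 were RRM2 (−4.43), E2F2 (−3.69, fitted on 3 treated counts in SK-MEL-103), TK1 (−3.36), MCM10 (−3.28), DTL (−2.17), ORC6 (−2.04), CCNE2 (−1.90), CDC45 (−1.74), CLSPN (−1.63) and E2F1 (−1.41). Less negative in SK-MEL-103 were CHAF1B (1.52), POLA1 (1.19), UHRF1 (0.97), POLD1 (0.94), MCM3 (0.91), RFC5 (0.75), TIMELESS (0.74), LIG1 (0.68) and POLD3 (0.64). LIG1, RFC5, TIMELESS and E2F2 lost the call on leaving out single libraries, and the count of 19 ran from 14 to 20.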

How the results depend on the processing

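Under 14 alternatives 47 to 49 members were called with doxorubicin in day 7 IMR-90, under 12 always 48 in SK-MEL-103, and under 13 48 to 49 on day 9; no named value changed sign. Of 252, 204 and 234 values of named members under these alternatives, 250, 204 and 234 kept their side of the threshold. For the difference between lines the count ran from 14 to 22 (144 of 170 named values kept), and for treated cells compared between lines from 28 to 31 (162 of 165). Leaving out 1 library moved the count between proliferating lines from 23 to between 12 and 25, and that for siMAVS in IMR-90 from 0 to between 0 and 1.

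Counts of 0 members became other values with a replicate block, in the 2 groups alone: 20 for siMFN1, 16 for siMFN2 and 9 for siMFN1+2 in IMR-90, 4 for siMFN1 and 10 for siMFN1+2 in SK-MEL-103, 1 for MFI8 and 16 for BI. Of all genes in these IMR-90 siRNA fits, 9.25%, 7.57% and 9.12% rose and 8.67%, 7.19% and 8.88% fell. In SK-MEL-103 8.99% rose and 9.96% fell with siMFN1, and 4.03% rose with siMFN1+2. With MFI8 and BI 1.98% and 2.42% fell. The counts for siMFN1+2 in IMR-90 and siMFN1 in SK-MEL-103 are not read as particular to the members. For siMFN2 in SK-MEL-103, where 1 library has no number and 2 pairs remain, the block gave 7, against 2.09% of all genes rising. With the block over all groups siMFN1 gave 3 in IMR-90, against 1.65% of all genes rising. For the difference between lines it gave 1, against 0.274% of all genes called lower. That block changed no other total count by over 1.5 times. Between proliferating lines, though, the 6 higher and 17 lower became 8 and 9, against 22.7% and 25.8% of all genes. For siMFN1 in IMR-90, DESeq2 and library number range as a covariate gave 3 each, against 2.54% and 1.64% of all genes rising. Without the libraries that hold CDKN2A counts, which leaves 2 a group, the counts were 4 (siMFN1), 1 (siMFN2) and 2 (siMAVS). Of all genes 1.08%, 0.162% and 0.79% rose there. The cause of these changes was not tested. Genes near or below 1 CPM after doxorubicin, such as MCM10, RRM2 and E2F2 in SK-MEL-103, have too few counts for small siRNA differences to be detected.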

Other observations

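The inhibitors of the cyclin-dependent kinases did not move as 1 group with doxorubicin. CDKN1A rose in each of the 3 experiments, as given above. CDKN2B, which encodes p15, rose in IMR-90 on day 7 (0.220, 0.578 and 0.301 against 5.49, 5.75 and 7.14 CPM; 4.18 ± 0.98, adjusted p = 0.0026, edgeR) and on day 9 (3.99 ± 0.34, adjusted p = 5.02e-06), and in SK-MEL-103 it had at most 0.0429 CPM in any proliferating or treated control siRNA library. CDKN2C, which encodes p18, fell with the replication genes in day 7 IMR-90 (67.5, 69.7 and 62.5 against 1.92, 2.25 and 3.55 CPM; −4.71 ± 0.56, adjusted p = 9.15e-06), in SK-MEL-103 (−2.99 ± 0.44, adjusted p = 1.55e-05) and on day 9 (−3.79 ± 0.58, adjusted p = 0.000286). CDKN1B, which encodes p27, fell in IMR-90 (−1.25 ± 0.17 on day 7 and −1.15 ± 0.12 on day 9) and rose in SK-MEL-103 (0.95 ± 0.33, adjusted p = 0.0202).

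CDKN2A was listed at 0 in every proliferating IMR-90 library; why it is exactly 0 in 22 IMR-90 libraries was not tested, and these zeros are not read as levels. In treated IMR-90 libraries 3 it was at 3.40 CPM with the control siRNA, 3.66 with siMFN1, 2.45 with siMFN2 and 3.38 with siMFN1+2, and in library 1 of siMAVS at 41.2 CPM. In libraries 2 of the compound experiment it was at 4.13 CPM with DMSO, 3.47 with MFI8 and 3.79 with BI. The libraries 2 and 3 concerned also had the highest summed level of replication genes in their groups, while library 1 of siMAVS had the lowest. In the control siRNA group, though, treated library 3 (712 CPM) was nearly level with library 2 (711 CPM). In SK-MEL-103 CDKN2A was at 300, 229 and 287 CPM in proliferating and 451, 407 and 425 CPM in treated control siRNA libraries.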
